A study of Mus musculus with 6 samples.

Results

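The genes described here are those of the cytosolic ribosomal proteins, measured by RNA sequencing in mouse spleen CD8+ T cells. Members were protein-coding genes whose GENCODE M21 symbol is Rpl or Rps followed by a number, with at most 1 letter after it, together with Rplp0, Rplp1 and Rplp2; pseudogenes and the Rps6k kinases were left out. The rule gave 78 genes of 35458 measured, 48 of the large (60S) subunit and 30 of the small (40S) subunit. Of these, 76 reached 1 FPKM (fragments per kilobase of exon, scaled to sequencing depth) in at least 3 libraries, 46 large and 30 small. The same filter kept 13956 genes of the whole series.

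The study compared 3 control libraries, labelled Cd4cre, with 3 libraries labelled Cd4creGlut10fl/fl, called KO here, in which a floxed Glut10 allele (the gene Slc2a10, a sugar transporter) was combined with Cd4-driven Cre. Both groups carried Cre. Cre under Cd4 control acts from the double-positive thymocyte stage, so it is active in the CD4+ lineage as well as in CD8+ T cells. Cells came from the spleen and were frozen before RNA was taken. Age, sex and treatment are not given in the sources used here, and nothing says that the libraries came from separate mice, so each p-value measures only the spread between these libraries.

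Ribosomal proteins coat the ribosomal RNA of the subunits that translate every mRNA. Their mRNAs are among the most abundant of a cell, and most begin with a run of pyrimidines directly at the cap, the terminal oligopyrimidine (TOP) element, through which mTORC1 and the RNA-binding protein Larp1 control their translation and stability together. In T cells, ribosome production is known to increase when a resting cell is activated and begins to grow. These genes have also left many processed pseudogenes, intron-less copies of their mRNAs, in the genome.

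Start-site windows from RefSeq (build GRCm38.p6) are printed because the TOP element is known from most of these mRNAs. Any link between the element and the levels described here was not tested. Each window runs 5′ to 3′ on the gene's strand, from 15 bases before the annotated start to 15 bases from it on, with its longest pyrimidine run in capitals. Rpl10 and Rps7 are shown for their shorter runs in this window, of 3 and 5 bases. In the longer window of 50 bases used below, the longest run of Rps7 was 8 bases, so Rps7 is not a gene without such a run.
Rpl35, chr2:39005117-39005146, minus strand: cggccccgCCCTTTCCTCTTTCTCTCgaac
Rpl38, chr11:114668565-114668594, plus strand: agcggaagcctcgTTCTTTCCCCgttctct
Rpl18, chr7:45718056-45718085, plus strand: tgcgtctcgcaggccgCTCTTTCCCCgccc
Rplp2, chr7:141447636-141447665, plus strand: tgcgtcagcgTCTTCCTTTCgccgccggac
Rps6, chr4:86857353-86857382, minus strand: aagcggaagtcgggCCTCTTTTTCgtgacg
Rps10, chr17:27635230-27635259, minus strand: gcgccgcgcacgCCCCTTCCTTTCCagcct
Rps7, chr12:28635939-28635968, minus strand: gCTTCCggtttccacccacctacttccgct
Rpl10, chrX:74270801-74270830, plus strand: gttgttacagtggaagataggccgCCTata

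Of the 76 members tested, 56 had a promoter in the RefSeq table. In the 50 bases from 20 before to 30 after the start, on the gene's strand, 33 of the 56 (58.9%) had a pyrimidine run of at least 8 bases, against 21.8% of the 8626 protein-coding genes tested that had a promoter. The motif CTTTC or CTTCC lay in the same window of 58.9% of members and 21.7% of those genes, with some overlap between a motif and a run. The share was 64.7% in the large subunit (22 of 34) and 23.5% for 68 mitochondrial ribosomal protein genes, which encode the separate ribosome of mitochondria. In the small subunit 11 of 22 had it. CCGGAAG, a core of ETS family sites, was found on either strand of the 300-base promoter in 41.1% of members, in 21.7% of the protein-coding genes tested and in 36.8% of the mitochondrial set. The motifs were chosen after the windows had been looked at, and a match is a description of the letters in a window.

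Slc2a10 was at 0.0946, 0.0373 and 0.0373 FPKM in controls 1, 2 and 3, which corresponds to 4, 2 and 2 reads, and was listed at 0 in each KO library. This is too few reads to check the labels. The depth implied by the values was 11840600, 15020100 and 15036300 fragments in the controls and 3420290, 14683400 and 3004540 in KO libraries 1, 2 and 3. KO 1 and KO 3 also stood apart in the number of genes at 1 FPKM or more, 18934 and 19268 against 12200 to 13713 elsewhere. T cell markers were lower in controls 2 and 3 than elsewhere: the summed level of 18 T cell markers was 1008 and 792 FPKM there against 3033 to 4522 FPKM in the other 4 libraries, and that of 11 neutrophil markers was 15562 and 28746 against 65.0 to 616 FPKM. Cd8a was present in every library, at 30.3 FPKM or more. In bulk RNA, fewer cells of a type and less RNA per cell cannot be told apart.

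Ribosomal protein mRNAs made up a large part of every library. The 78 genes held 11.6%, 13.6% and 9.70% of the summed protein-coding FPKM in controls 1, 2 and 3, and 13.3%, 18.5% and 16.2% in KO libraries 1, 2 and 3. The mean was 11.6% ± 1.94 (SD, n = 3) in controls and 16.0% ± 2.64 (SD, n = 3) in KO. Of the FPKM summed over all genes, the share was 9.84% ± 1.58 in controls and 11.98% ± 2.65 in KO (SD, n = 3 each), with KO 1 (9.52%) close to control 1 (9.44%). Of the protein-coding sum, KO 2 and KO 3 lay above every control, while KO 1 lay just below control 2, so the groups overlapped. The share stood lowest in control 3, and control 2 was the highest control. Controls 2 and 3 were both rich in neutrophil and erythroid marker RNA, and the part of cell makeup in the share was not tested. Taken by subunit, the large subunit genes held 6.58% ± 1.07 (SD, n = 3) in controls and 8.99% ± 1.53 (SD, n = 3) in KO, and the small subunit genes 5.05% ± 0.870 and 6.99% ± 1.11 (SD, n = 3 each).

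**Figure D1:**
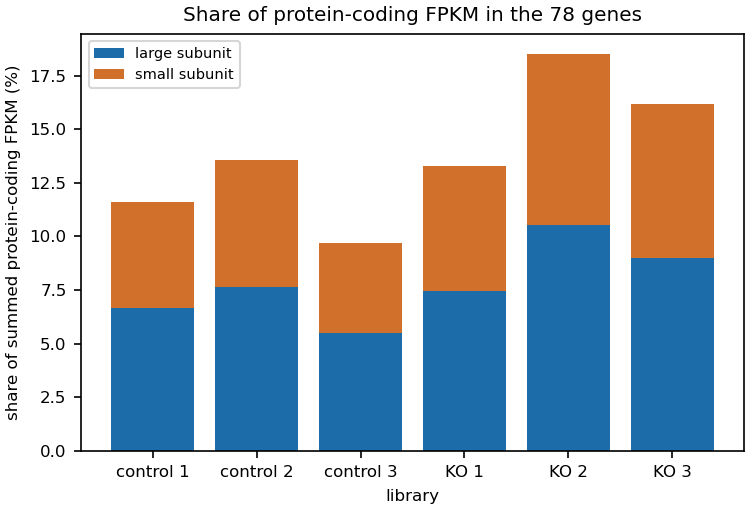
Share of the summed protein-coding FPKM (percent, vertical axis) held by the 78 genes in each of the 6 libraries, with large and small subunit genes stacked. The tallest bar is KO 2 at 18.5%, and the lowest is control 3 at 9.70%; KO 1 (13.3%) is level with control 2 (13.6%).

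Levels of the members spread widely within a library. Among the 76, 65 were at 100 FPKM or more in every library, 14 had a mean of at least 1000 FPKM (7 large and 7 small), and 7 had a mean under 100 FPKM. The highest means per kilobase of exon were those of Rplp1 (2966 FPKM), Rplp0 (2507 FPKM) and Rpl8 (2209 FPKM) in the large subunit, and of Rps15 (2077 FPKM), Rps24 (1897 FPKM) and Rps23 (1652 FPKM) in the small. Rplp0 and Rplp1 belong to the P stalk, which recruits the translation factors, and Rpl8 lies near the peptidyl transferase centre. The lowest were Rpl24 (4.23 FPKM), Rpl13a (8.60 FPKM) and Rpl23a (36.3 FPKM), although each of these encodes a core ribosomal protein. All 3 share windows with annotated pseudogenes: Gm11478 held 45.7% to 73.5% of the implied reads of its pair with Rpl13a over the 6 libraries, Gm3362 held 64.9% to 78.7% beside Rpl23a, and the copy of Rpl24 is described further on. With the reads of all such copies added, Rpl13a was still at only 8.09 to 39.5 FPKM and Rpl24 at 13.9 to 92.1 FPKM. Rpl23a was then at 271 to 600 FPKM. The median member, without copies added, was at 305 to 540 FPKM. The cause of the low levels was not tested.

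The order depended on the length used. FPKM divides by all annotated exon bases of a gene, a median of 1776 bases for these members, while the shortest consensus coding transcript had a median of 679.5 bases. Per kilobase of that mRNA, the order of the members had a Spearman's rho of 0.79 with their order by FPKM (76 genes, which are not independent replicates and share libraries and depth). Rps24 has 6256 annotated exon bases and a 468-base mRNA, and stood at 25353 per kilobase of mRNA, with Rps14 (4411) and Rpl8 (3527) next. The value for Rps24 rests on this choice of transcript, which was made after seeing the data.

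Small subunit mRNAs had the higher median in all 6 libraries. The median over small subunit members was 403, 537 and 342 FPKM in controls 1, 2 and 3 and 451, 687 and 573 FPKM in KO 1, 2 and 3. For the large subunit it was 304, 455 and 303 FPKM in controls and 339, 507 and 469 FPKM in KO. On the log2(FPKM + 1) scale the large median lay below the small one by 0.18 to 0.40 in controls and 0.29 to 0.44 in KO libraries. The mean gap, large minus small, was -0.27 ± 0.12 (SD, n = 3) in controls and -0.38 ± 0.08 (SD, n = 3) in KO, and the ranges overlapped. With mRNA length in place of exon length the gap was -0.43 ± 0.0020 in controls and -0.46 ± 0.08 in KO (SD, n = 3 each), so the 2 groups differed by 0.03, less than the spread between KO libraries.

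**Figure D2:**
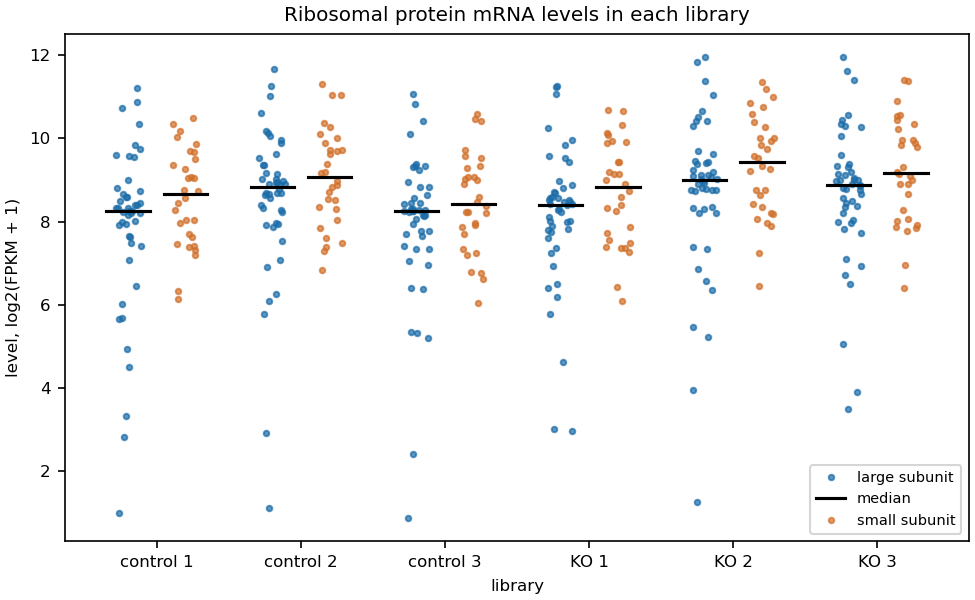
Level of each of the 76 members, log2(FPKM + 1) on the vertical axis, in the 6 libraries; points are genes, coloured by subunit, and black bars are subunit medians. The small subunit bar lies above the large subunit bar in each library, and the lowest points belong to Rpl24 and Rpl13a.

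The members tended to be higher in KO than in control libraries, but no single member passed the test. On log2(FPKM + 1), limma with adjustment over all 13956 genes called 0 of the 76 members, and 0.0% of all genes, at an adjusted p under 0.05. In simulated data the same fit called only 1% of genes changed 2-fold. The absence of calls therefore says little about differences of that size or smaller. At an unadjusted p under 0.05 there were 2 members, Rps7 and Rpl24, both higher in KO, against 11.8% of all genes in either direction and 5.33% higher in KO. In this fit the members' count does not exceed the background. The limma-voom fit on the reads implied by the values also gave 0 members. There, 12 of 76 were at an unadjusted p under 0.05, against 8.44% of 16073 genes in either direction. At the same level, limma after quantile normalization gave 11 of 76 members, against 2046 of 13956 genes. After scaling to protein-coding genes that are not members, limma gave 13 of 76, against 1586 of 14000 genes. The count of members thus depended on the fit, and members are not independent of each other. The fitted difference was above 0 for 69 of 76 members, against 56.9% of all genes tested. The median difference was 0.34 (log2, KO minus control) over the large subunit and 0.40 over the small subunit, against 0.10 over all genes tested. The 77 mitochondrial ribosomal protein genes had a median of 0.13, with 53 above 0.

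Every KO library lay above every control for 10 members (6.7% of all genes did so), 5 of each subunit, and every KO library lay below every control for 0 members (9.44% of all genes). Among them were Rpl8, Rpl18, Rpl24 and Rplp0 of the large subunit and Rps3, Rps7, Rps9 and Rps16 of the small. Rpl24 reached 1 FPKM in only 1 control and passed the filter through the KO libraries, so its place among these members and among those with a low p follows in part from the filter. In sets of 3 against 3, the smallest p an exact two-sided permutation test can give is 0.1.

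The common direction rested on a few libraries. Of the 76 members, 38 had their highest value in KO 2, 24 in KO 3 and 14 in control 2, while 45 had their lowest in control 3, 20 in control 1 and 11 in KO 1. KO 2 was above every control for 56 members and KO 3 for 49, but KO 1 for only 10, and KO 1 lay within the range of the controls for 55. Control 2 exceeded the other controls for 72 members. Without KO 2 the medians were 0.21 (large) and 0.28 (small), and without KO 1 they were 0.58 and 0.60; without control 2 they were 0.55 and 0.59, and without control 3 they were 0.23 and 0.26. The medians thus moved either way with single libraries, and stayed above 0 with any 1 of the 6 left out. Without control 1 they were 0.27 and 0.32 while the median of all genes was 0.19, so the members stood closer to the other genes there.

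**Figure D3:**
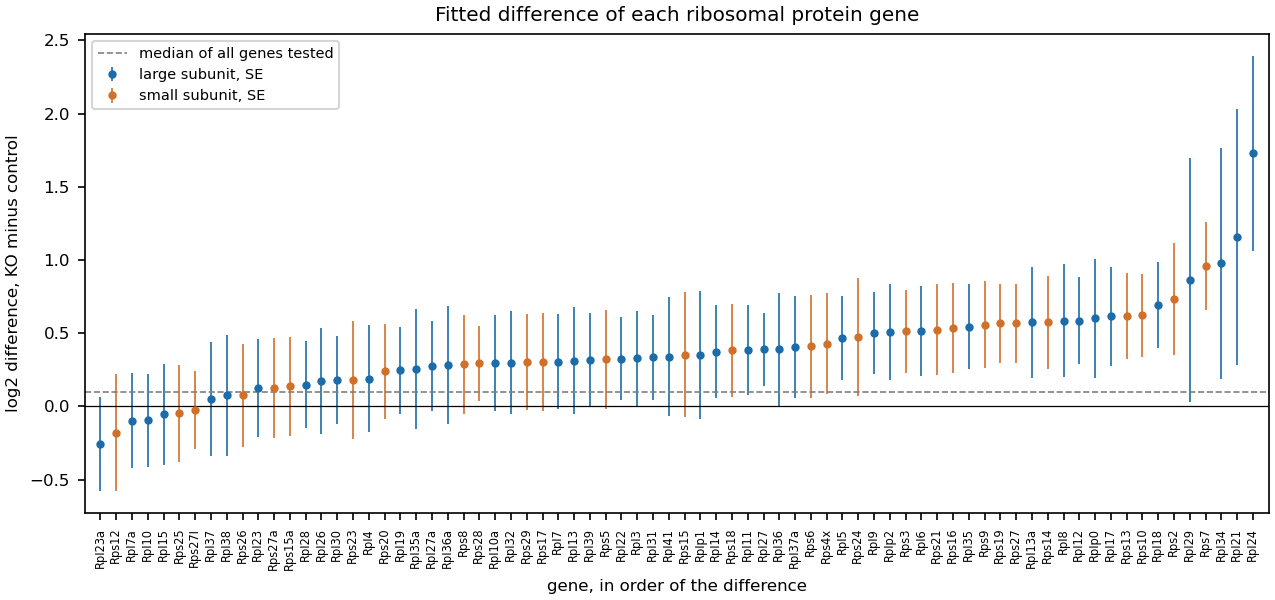
Fitted log2 difference (KO minus control, vertical axis) with its standard error for 74 of the 76 members, ordered along the horizontal axis by the difference; colours mark the subunit, and the dashed line is the median of all 13956 genes tested, 0.10. The 7 genes at the left lie below 0, and the widest error bars belong to Rpl21, Rpl29, Rpl34 and Rpl24 at the right.

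Rps7, a 40S body protein that also takes part in early 40S assembly, had the smallest p of the members. It was at 432, 575 and 385 FPKM in controls 1, 2 and 3 and at 694, 1027 and 990 FPKM in KO 1, 2 and 3. All KO libraries were above all controls, with a gap between 575 and 694 FPKM. The difference was 0.96 (log2, SE 0.30), and the limma adjusted p was 0.417. Only 29.7% of the 50-base windows of its mRNA occurred in no other annotated transcript. Its 11 pseudogene copies held reads equal to 77.4%, 65.6% and 65.1% of its own in controls 1, 2 and 3 and to 32.8%, 37.1% and 35.0% in KO 1, 2 and 3. With these copies added, Rps7 was at 765, 953 and 636 FPKM in controls and 921, 1407 and 1337 FPKM in KO libraries. KO 1 then lay below control 2, so the groups overlapped, and the difference was 0.63 in place of 0.96.

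The 15 proteins of the 40S body and platform had a median difference of 0.52, and 15 of 15 were above 0. Rps2, which lies at the mRNA entry channel, was at 721, 1036 and 624 FPKM in controls and 960, 1856 and 1204 FPKM in KO libraries. Its difference was 0.73 (SE 0.38, limma adjusted p = 0.421), and KO 1 fell within the range of the controls. Pseudogene copies of Rps2 held reads equal to 61.1% of its own in control 1, against 8.04% to 22.7% elsewhere. With copies added, control 1 was at 1162 FPKM and KO 1 at 1178 FPKM, and the difference was 0.66. Rps6, the substrate of the S6 kinases, was at 936, 1244 and 763 FPKM in controls and 981, 1531 and 1387 FPKM in KO libraries, with overlap. Rps14, a platform protein, was at 826, 1097 and 735 FPKM in controls and 1083, 1342 and 1516 FPKM in KO libraries, where only KO 1 and control 2 were out of order.

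Of 14 proteins of the 40S head, 12 were above 0, with a median of 0.31. Rps10, which lies near the mRNA entry site, was at 260, 317 and 206 FPKM in controls and 305, 430 and 475 FPKM in KO libraries, with KO 1 below control 2 (difference 0.62, SE 0.28, limma adjusted p = 0.417). Rps19, required for maturation of the 40S subunit and mutated in Diamond-Blackfan anaemia, was at 145, 177 and 108 FPKM in controls and 166, 237 and 229 FPKM in KO libraries (difference 0.57, SE 0.27, limma adjusted p = 0.417). Rps3, at the mRNA entry channel, was at 426, 473 and 333 FPKM in controls and 477, 733 and 561 FPKM in KO libraries, so that KO 1 lay just above control 2. Rps12 was among the few members with a fitted difference below 0: its values were 174, 374 and 241 FPKM in controls and 153, 327 and 217 FPKM in KO libraries (difference -0.18, SE 0.40, limma adjusted p = 0.838). For Rps25, whose protein is needed for internal initiation on some viral mRNAs, the difference was -0.05 (SE 0.33).

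In the large subunit, the 4 P stalk genes had a median difference of 0.55 and all 4 were above 0. Rplp0, the core protein of the stalk, was at 1706, 2436 and 1799 FPKM in controls and 2446, 3955 and 2697 FPKM in KO libraries. KO 1 lay just above control 2, so the groups did not overlap but nearly met (difference 0.60, SE 0.41, limma adjusted p = 0.478). Pseudogene copies of Rplp0 held reads equal to 41.6% of its own in control 1, against 2.94% to 5.15% elsewhere. With copies added, the difference was 0.47, and KO 1 (2566 FPKM) stayed just above control 2 (2523 FPKM). Rpl12, which binds RNA beside Rplp0 at the foot of the stalk, was at 293, 300 and 199 FPKM in controls and 297, 498 and 403 FPKM in KO libraries (difference 0.59, SE 0.30, limma adjusted p = 0.421), with KO 1 below control 2.

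Rpl5 and Rpl11 form the 5S ribonucleoprotein particle, which can bind the p53 ligase Mdm2 when ribosome assembly is disturbed. Rpl5 was at 302, 436 and 310 FPKM in controls and 367, 556 and 529 FPKM in KO libraries (difference 0.47, SE 0.29, limma adjusted p = 0.45). Rpl11 was at 240, 309 and 206 FPKM in controls and 236, 434 and 333 FPKM in KO libraries (difference 0.38, SE 0.31, limma adjusted p = 0.538). In both genes KO 1 lay within the control range and the other KO libraries above it.

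Around the exit tunnel, through which the new peptide leaves, 7 of 8 genes were above 0 with a median of 0.28. Rpl17 was at 765, 994 and 633 FPKM in controls and 916, 1366 and 1385 FPKM in KO libraries (difference 0.62, SE 0.34, limma adjusted p = 0.423). Rpl35 was at 64.2, 76.0 and 39.5 FPKM in controls and 72.1, 94.7 and 89.6 FPKM in KO libraries (difference 0.55, SE 0.29, limma adjusted p = 0.421). Both had KO 1 inside the control range. Rpl23a, the docking site of the signal recognition particle at the tunnel exit, was the exception and had the lowest difference of all members: 29.6, 53.9 and 35.6 FPKM in controls and 23.5, 43.3 and 32.2 FPKM in KO libraries (difference -0.26, SE 0.32, limma adjusted p = 0.698).

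Of the other large subunit genes, Rpl18 came next to Rpl24 by p. It was at 322, 333 and 216 FPKM in controls and 367, 477 and 563 FPKM in KO libraries (difference 0.69, SE 0.29, limma adjusted p = 0.417). The groups did not overlap, and KO 1 was the lowest KO library. Rpl10, which completes the 60S subunit last in the cytoplasm, was at 284, 492 and 349 FPKM in controls and 276, 449 and 324 FPKM in KO libraries, with a difference of -0.10 (SE 0.32). Rpl38, reported to favour translation of Hox mRNAs, was at 258, 577 and 316 FPKM in controls and 257, 426 and 506 FPKM in KO libraries, a difference of 0.08 (SE 0.41).

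Paralogs showed levels well apart from their partners. Rpl22, whose loss is known to block alpha-beta T cell development, was at 87.1, 120 and 83.3 FPKM in controls and 89.2, 160 and 121 FPKM in KO libraries. Its paralog Rpl22l1, outside the rule by its symbol, was at 13.2, 11.1 and 8.13 FPKM in controls and 14.0, 28.0 and 21.3 FPKM in KO libraries, without overlap (difference 0.87, SE 0.32, limma adjusted p = 0.417). Rpl7l1, a paralog of Rpl7, was the only gene of this outside list with all KO libraries below all controls: 46.7, 56.6 and 49.0 FPKM against 43.9, 44.3 and 30.5 FPKM (difference -0.37, SE 0.22). Rps27l, a p53 target and paralog of Rps27, was at 69.8, 112 and 65.4 FPKM in controls and 67.4, 86.0 and 83.6 FPKM in KO libraries (difference -0.03, SE 0.27). Rps27 itself had 1.35% of windows of its own, since Rps27rt, a retrogene, carries nearly the same sequence, and reads of the pair may be split between them.

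Outside the rule, the 40S proteins Rpsa and Rps3a1, the scaffold Rack1, and Fau, which encodes a ribosomal protein fused to a ubiquitin-like protein, were on a list of 9 genes measured. Of these 7 were above 0, with a median of 0.55. Rps3a1 was at 1592, 1620 and 1232 FPKM in controls and 1757, 2520 and 2277 FPKM in KO libraries, without overlap (difference 0.56, SE 0.35). Rpl3l and Rpl39l, the muscle and testis paralogs of Rpl3 and Rpl39, were the members that missed the filter, at up to 1.18 and 2.46 FPKM. Just inside it was Rpl24, whose lowest value was 0.839 FPKM.

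Translation factors and other genes whose mRNAs carry TOP elements were set beside the members. Of 17 such genes, 13 were above 0 and 4 below, with a median of 0.27 and 0 called. Eef1d, an elongation factor subunit, was at 37.1, 33.8 and 22.6 FPKM in controls and 38.5, 52.0 and 56.6 FPKM in KO libraries, without overlap. Eif2s3x, a subunit of the initiator tRNA carrier eIF2, went the other way at 42.1, 31.9 and 34.8 against 15.5, 32.1 and 9.87 FPKM (difference -1.03, SE 0.42, limma adjusted p = 0.417). Of 16 genes of mTORC1 signalling and TOP control, 11 were below 0, with a median of -0.40, and for 4, among them Akt1, Larp4 and Rheb, every KO library lay below every control, against 9.44% of all genes. Akt1, the kinase upstream of mTORC1, was at 64.9, 64.1 and 82.2 FPKM in controls and 49.9, 49.7 and 30.4 FPKM in KO libraries (difference -0.71, SE 0.26, limma adjusted p = 0.417). Of 20 ribosome assembly genes, 12 were above 0 and the median was 0.10, the same as over all genes; Wdr12, needed for 60S assembly, was at 4.86, 6.28 and 3.54 FPKM in controls and 9.68, 7.21 and 10.1 FPKM in KO libraries.

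Relative to the median of the members in the same library, most members held a fixed place. The SD of this deviation over the 6 libraries was under 0.25 (log2) for 55 of 76 members and over 0.5 for 4, Rpl21, Rpl24, Rpl29 and Rpl34, all of the large subunit. Smaller departures divided controls 2 and 3, the libraries with most neutrophil marker RNA, from the rest. Rps12, Rps25, Rpl10 and Rpl23a were relatively higher in controls 2 and 3 than in the other 4 libraries, and Rpl18 and Rps9 relatively lower. For Rps7 the controls were instead set apart from the KO libraries. It deviated by 0.430, 0.271 and 0.337 in controls 1, 2 and 3, against 0.997, 0.927 and 0.966 in KO 1, 2 and 3. Rps12 deviated by -0.35 and -0.33 in controls 2 and 3, against -0.88 in control 1 and -1.18, -0.72 and -1.22 in KO 1, 2 and 3. These genes were picked after their values were seen, and the part of neutrophil RNA in them was not tested.

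**Figure D4:**
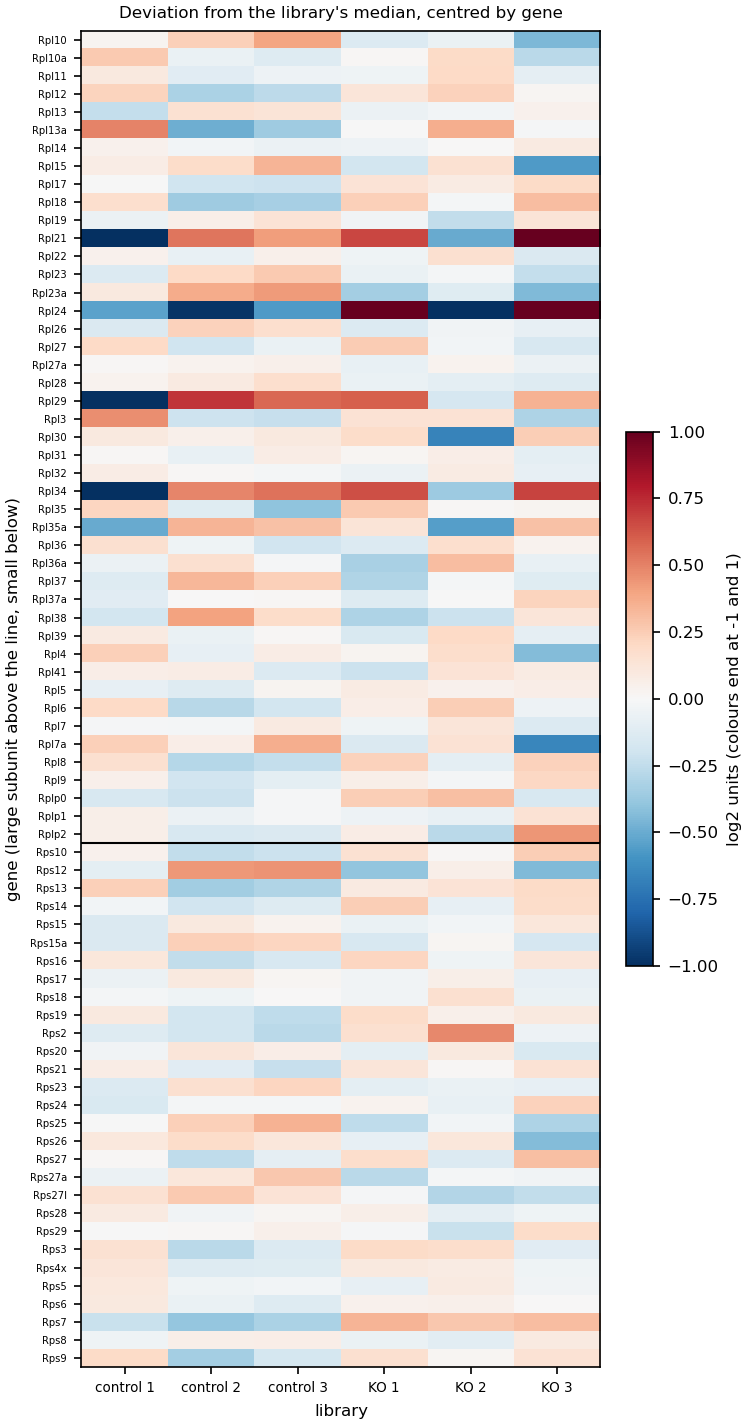
Deviation of each member from the median member of the library, centred on the gene's own mean (log2 units, colour; colours end at -1 and 1), for 45 large subunit genes above the line and 29 small subunit genes below it, in 6 libraries. Most cells are pale, while the rows of Rpl21, Rpl29 and Rpl34 are dark blue in control 1 and blue or pale in KO 2, and that of Rpl24 is red in KO 1 and KO 3.

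For Rpl34, Rpl29, Rpl21 and Rpl30 the reads were shared between the gene and a processed pseudogene in amounts that differed between libraries. Over all members, a median of 43.5% of the 50-base windows of the mRNA were found in no other annotated transcript, 24 of 76 had under 25% such windows, and 72 of 78 shared a window with at least 1 of 710 annotated pseudogenes. Copy reads also differed between libraries for other members, among them Rplp0 and Rps2 in control 1. Copies of Rpl3 held reads equal to 56.2% of its own in KO 2, against 14.3% to 22.6% elsewhere. The 4 pairs shown were picked with the values already known. The stretches below, from GENCODE M21 transcripts, all lie in the longest open reading frame and show in capitals where gene and copy differ.
Rpl34: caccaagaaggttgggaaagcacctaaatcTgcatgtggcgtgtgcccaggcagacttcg
Rpl34-ps1: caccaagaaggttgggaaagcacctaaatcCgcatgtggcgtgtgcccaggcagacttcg
Rpl29: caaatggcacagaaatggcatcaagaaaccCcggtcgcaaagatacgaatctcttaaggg
Gm8210: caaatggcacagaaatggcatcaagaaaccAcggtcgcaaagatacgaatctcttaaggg
Rpl21: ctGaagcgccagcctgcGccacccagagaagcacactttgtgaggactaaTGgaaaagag
Gm10095: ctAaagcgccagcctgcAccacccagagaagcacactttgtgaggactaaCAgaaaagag
Rpl30: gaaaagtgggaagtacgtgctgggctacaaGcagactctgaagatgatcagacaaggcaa
Gm12191: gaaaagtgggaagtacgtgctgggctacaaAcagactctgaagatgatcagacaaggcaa

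Counted from 1 at the 5′ end of each 60-base stretch, with the gene's base first, the substitutions are T31C for Rpl34-ps1, C31A for Gm8210, G31A for Gm12191, and G3A, G18A, T51C and G52A for Gm10095. Rpl34-ps1 lies at chr6:71124610-71124963 (plus strand, GRCm38), matches the Rpl34 mRNA at 352 of 354 bases, and overlaps no other annotated gene. Gm8210 lies at chr1:43189156-43189638 (plus strand) across Fhl2, which runs on the other strand, and matches Rpl29 at 480 of 483 bases. Gm10095 at chr12:86845778-86846467 (minus strand) matches Rpl21 at 477 of 483 bases, and Gm12191 at chr11:49678710-49679057, within Cnot6 and on its strand, matches Rpl30 at 347 of 348 bases.

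In the pairs of Rpl34, Rpl29 and Rpl21, control 1 and KO 2 were set apart from the other 4 libraries. Rpl34-ps1 held 89.0% of the pair's implied reads in control 1 (exact 95% interval 88.2 to 89.8%, 5479 reads beside 678 of Rpl34) and 65.4% in KO 2 (64.6 to 66.2%, 8490 reads beside 4491), against 28.3%, 28.5%, 30.1% and 29.3% in control 2, control 3, KO 1 and KO 3. These intervals cover counting error only. Rpl34, a 60S protein, was at 21.7 FPKM in control 1 and 116 FPKM in KO 2, against 185 and 123 FPKM in controls 2 and 3 and 150 and 224 FPKM in KO 1 and KO 3. With the reads of all its pseudogene copies added, Rpl34 was at 203, 270 and 180 FPKM in controls and 229, 347 and 333 FPKM in KO libraries. The SD of its deviation from the library median was then 0.045 in place of 1.04, and its difference 0.47 in place of 0.98.

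Gm8210 showed the sharpest contrast. It held 55.5% of the reads of its pair with Rpl29 in control 1 (836 reads beside 669 of Rpl29) and 15.1% in KO 2 (948 beside 5313), and 0.0686% to 0.147% in the other 4 libraries, where it had 1 to 9 reads. Rpl29, a small 60S protein, was at 50.2, 523 and 303 FPKM in controls and 352, 321 and 431 FPKM in KO libraries. Control 1 was thus the only library under 300 FPKM. Adding the copies did not bring it level: the sums were 190, 645 and 387 FPKM in controls and 599, 512 and 670 FPKM in KO libraries. Without control 1, the Rpl29 difference changed sign, from 0.86 to -0.13.

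For Rpl21 the copy Gm10095 held 93.2% in control 1 and 75.3% in KO 2, against 43.0% to 53.8% in the other 4 libraries. Rpl21 was at 6.01, 67.3 and 39.2 FPKM in controls and 53.4, 36.5 and 104 FPKM in KO libraries, with control 1 lowest by far (difference 1.16, SE 0.87, limma adjusted p = 0.517). For Rpl30 the pattern was different, with Gm12191 at 47.7% in KO 2 but 14.0% in control 1, within the 7.97% to 16.8% of the other libraries. Rpl30 was at 169, 243 and 160 FPKM in controls and 194, 167 and 296 FPKM in KO libraries, so KO 2, the highest library for 38 of 76 members, was among the lowest here. With copies added, Rpl30 in KO 2 was at 326 FPKM, above every control.

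Rpl24, which links the subunits in the assembled ribosome, had the largest fitted difference and the fewest reads. It was at 0.984, 1.16 and 0.839 FPKM in controls and 7.10, 1.39 and 13.9 FPKM in KO libraries, which corresponds to 12, 18 and 13 reads and 25, 21 and 43 reads. KO 1 and KO 3 were high, and KO 2 lay just above the controls (difference 1.73, SE 0.67, limma adjusted p = 0.417). The pseudogene Gm12254 held 93.3% to 96.8% of the reads of the pair in the controls and KO 2, and 79.2% and 78.7% in KO 1 and KO 3. The libraries in which Rpl24 was high are the 2 of lowest depth and most detected genes, and their part in this value was not tested. Without KO 2, Rpl24 was the only member called (difference 2.46, limma adjusted p = 0.00515), in a fit that called 1821 genes; since the filter kept it only through the KO libraries, this call supports nothing about the members.

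**Figure D5:**
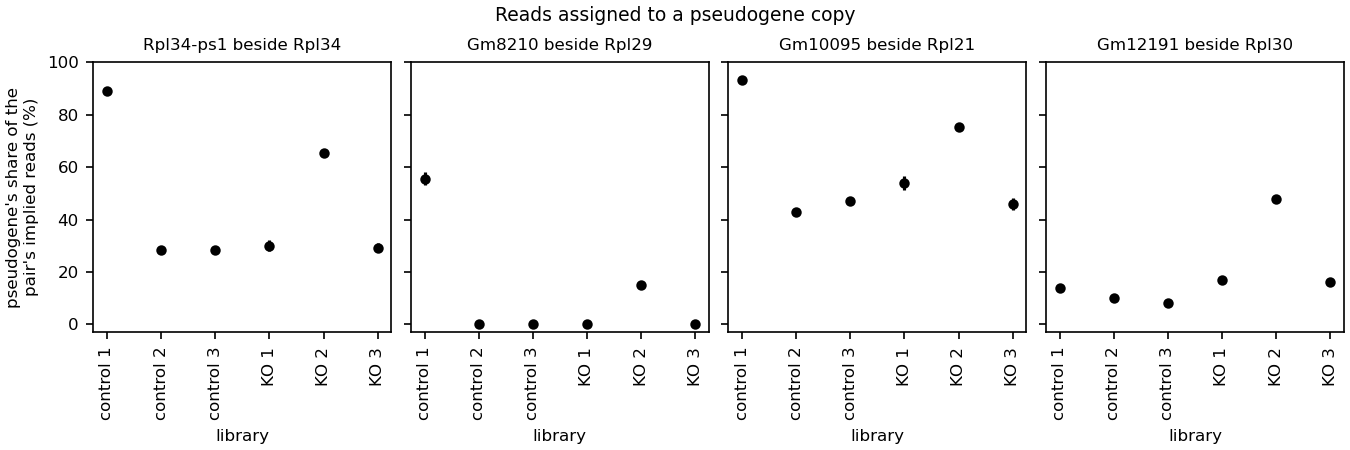
Percent of the implied reads of a gene and its pseudogene copy that were assigned to the copy (vertical axis), for 4 pairs in the 6 libraries; bars are exact 95% binomial intervals, mostly smaller than the points. Control 1 and KO 2 stand above the other libraries for Rpl34-ps1 (89.0% and 65.4%), Gm8210 (55.5% and 15.1%) and Gm10095 (93.2% and 75.3%), and KO 2 alone does for Gm12191 (47.7%).

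Across the 76 members, the difference between groups had a Spearman's rho of -0.03 with the percent of own windows (across genes, which are not independent replicates). The 30 members with at least 50% own windows had a median difference of 0.34, and 29 of them were above 0; the 46 others had a median of 0.37. Adding the reads of pseudogene copies gave medians of 0.44 for the large subunit and 0.40 for the small, with 72 of 76 members above 0 and 0 called.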

How the data were processed

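RNA sequencing of 6 libraries was deposited by the authors as FPKM, 1 value per gene and library; this unit was inferred, since 92.1% to 93.4% of values under 200 implied reads were whole multiples (tolerance 0.02) of what 1 read is worth at the GENCODE M21 exon length. Per the submitters' processing notes, the tools were HTSeq 0.6.0, Bowtie2 2.2.3 and HISAT2 2, and the build was mm8; the notes do not say what each did. Strand use and the treatment of reads that fit several places are not given in the sources used here. Of 35458 gene identifiers, 35358 matched GENCODE M21. Implied reads summed to 8.31% to 12.3% more than the implied depth. The median member had 2161 to 14718 implied reads in a library.

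Genes with at least 1 FPKM in 3 libraries were tested on log2(FPKM + 1) with limma 3.58.1 (R 4.3.3, trend), with Benjamini-Hochberg adjustment over all 13956 genes and no covariate. On simulated reads with a dispersion of 0.1, this fit recovered 1% of genes changed 2-fold and 42% of genes changed 4-fold, with 6 false calls. The spread between the real libraries may differ from the simulated one. A fold change on this scale understates that of low genes. Windows of 50 bases of the shortest consensus coding transcript were searched in all M21 transcripts. Intervals are exact (Clopper-Pearson).

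Members named were those highest and lowest in level, largest and smallest in difference or p, next to the filter, with paralogs, or in lists by role. The members and 15 lists were chosen with earlier results of these data known; B cell and NK markers were also summed (16.4 to 86.2 and 1.93 to 32.5 FPKM over the libraries), as were 15 macrophage (488 to 7076 FPKM) and 9 erythroid markers (4.92 to 2219 FPKM, highest in controls 2 and 3). Alternatives were other pseudocounts, filters, scalings, gene sets, a replicate block, voom and left-out libraries. After seeing the data, the copy pairs, motifs, the mRNA length (settled on after other transcript choices had been looked at), the addition of copies, the split at 50% own windows and the joint removal of control 1 and KO 2 were added. Values of a few genes are not reported here, and 2 members are left out of the plots that name genes; they stay in every fit, count and median.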

Additional observations from a re-analysis of the deposited data

How the results depend on the processing

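Depth limits KO 1 and KO 3 most, at 3420290 and 3004540 implied fragments, and with 3 libraries a group the fits rest on single libraries. Leaving out 1 library in turn gave 0 to 1 members called (Rpl24, without KO 2) and 0 to 1821 genes called among all tested, with 363 without control 1 and 1821 without KO 2. Leaving out control 1 and KO 2 together, which was chosen after seeing the data, gave 4024 genes and 1 member (Rpl24, limma adjusted p = 0.00477), with medians of 0.13 (large) and 0.22 (small). Fewer samples entered these fits. Without KO 2 the KO group held only KO 1 and KO 3, the libraries of lowest depth and most detected genes. Of the calls, 1687 of 1821 without KO 2, and 2901 of 4024 without control 1 and KO 2, were higher in KO. In these fits genotype, depth and the number of detected genes cannot be told apart. The cause of the gain in calls was not tested.

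Medians of both subunits stayed above 0 in every alternative run, from 0.13 to 0.63 (large) and 0.22 to 0.63 (small). The upper ends are from the fit without KO 1 and KO 3, in which KO 2 alone stood for its group. The subunit medians did not always stay above the median of all genes: without control 1 and KO 2 that median was 0.16, above the 0.13 of the large subunit. Without control 1 alone it was 0.19, below 0.27 and 0.32. Quantile normalization moved the median of all genes by over 0.1, from 0.10 to -0.12, and the share of all genes above 0 from 56.9% to 42.2%. The subunit medians in that fit were 0.29 (large) and 0.32 (small), not taken relative to the median of all genes. The share of protein-coding FPKM was 4.35 percentage points higher in KO over all libraries. It was 6.89 higher without KO 1 and KO 3, where KO 2 alone stood for its group. As a share of the FPKM of all genes, the difference over all libraries was 2.14. The KO minus control change in the large minus small gap, -0.11, was 0.094 over members with at least 50% own windows. It was 0.027 without controls 2 and 3, where control 1 alone stood for its group. The cause was not tested.

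Deviations of same-numbered control and KO libraries correlated at 0.11, 0.02 and 0.02, and those of differently numbered ones at -0.21 to 0.14. With so few libraries these values cannot show whether the replicate numbers mark pairs. With a replicate block, 0 members and 0 genes passed, and the smallest adjusted p of a member was 0.39.

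Among 21 named members, those with fitted differences near 0, and Rpl29 with 0.86, changed sign. Leaving out KO 1 and KO 3 leaves only KO 2 in its group, and leaving out controls 2 and 3 leaves only control 1. Differences from these fits rest on that single library. Without KO 1 and KO 3 the differences were 0.30 for Rpl10, 0.54 for Rpl15, 0.17 for Rpl23a, 0.51 for Rpl7a, 0.38 for Rps12, 0.36 for Rps25 and 0.10 for Rps27l. Without controls 2 and 3 they were 0.27 for Rpl10, 0.24 for Rpl15, 0.11 for Rpl23a, 0.054 for Rpl7a, 0.34 for Rps12, 0.32 for Rps25 and 0.17 for Rps27l. Without control 1 and KO 2, Rpl29 was at -0.033 and Rps26 at -0.27. With copies added, Rpl15 was at 0.023, Rpl23a at 0.018 and Rpl7a at 0.077. On voom, Rps27l was at 0.027. Scaled to protein-coding genes, Rpl15 was at 0.0023, Rps25 at 0.0089 and Rps27l at 0.030; scaled to those that are not members, Rpl10 was at 0.035, Rpl15 at 0.075, Rpl7a at 0.033, Rps25 at 0.082 and Rps27l at 0.10. Leaving out single libraries gave -0.29 to 0.12 for Rpl10, -0.35 to 0.14 for Rpl15, -0.40 to 0.064 for Rpl7a, -0.46 to 0.11 for Rps12, -0.25 to 0.18 for Rps25, -0.17 to 0.22 for Rps27l, -0.13 to 1.55 for Rpl29 and -0.17 to 0.31 for Rps26. The cause was not tested.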
